A study of Mus musculus with 25 samples.

Results

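The 31 genes described here make cholesterol and fatty acids, sense the cell's sterol supply, carry cholesterol inside the cell or remove it. They were chosen by symbol from the 54532 genes of a table of cortical RNA sequencing in 25 mice, with the condition that a gene reach 0.5 FPKM in at least 5 of the 25 libraries (FPKM is fragments per kilobase of gene length, scaled to the size of the library). Each of the 31 met that condition, and 30 of them met it in all 25 libraries. The exception was Fdps, the farnesyl diphosphate synthase gene, at or above 0.5 FPKM in 6 libraries. The whole table had 16450 genes past the same filter.

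The mice formed 5 groups of 5. Wild-type animals received vehicle (group WT_Veh) or the high dose of an agent called P (WT_HighP), and 5xFAD animals received vehicle (AD_Veh), the low dose (AD_LowP) or the high dose (AD_HighP). P was described as derived from a natural product; its identity and doses, the length of treatment and the ages of the mice were not given in the sources used here. 5xFAD is a transgenic line that deposits amyloid, with mutant human transgenes driven in neurons by Thy1 sequences, so that transgene levels follow the neurons that use this promoter. Thy1 itself, which can read the promoter sequence of the transgene, stood at 155 FPKM in WT_Veh and 458 in AD_Veh, as the genotype labels have it. Libraries held 15518358 to 17698222 reads assigned to genes.

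Brain cholesterol is made in place, because lipoproteins of the blood do not cross the blood-brain barrier. Acetyl-CoA is built up to mevalonate, to isoprenoids, to squalene and to lanosterol, and a further set of enzymes turns lanosterol into cholesterol; astrocytes and oligodendrocytes make much of the cholesterol of the adult brain, and myelin holds most of it. When sterols in the endoplasmic reticulum are low, SCAP escorts the SREBP transcription factors to the Golgi for activation, and the INSIG proteins hold SCAP back when sterols are plentiful. Neurons dispose of cholesterol by 24-hydroxylation.

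Levels spanned a wide range. Scd2, the main stearoyl-CoA desaturase gene of brain, was the most abundant member, with group means of 387 to 426 FPKM. Cyp46a1, Scd1, Hmgcs1, Srebf2, Fasn and Acly followed, with group means between 36 and 72.8 FPKM. Tm7sf2, a sterol C14 reductase gene, lay between 1.58 and 2.77 FPKM, and Fdps between 0.217 and 0.557 FPKM on 9 to 59 reads a library. Exon bases of Fdps are shared on the same strand with the gene model Gm43738 over 26.7% of their length, so its low level is uncertain. The summed level of the 31 genes was 895 to 923 FPKM in WT_Veh mice, with a median of 899, and 961 to 1113 FPKM in AD_Veh mice, with a median of 1033, so that the lowest AD_Veh mouse stood above the highest WT_Veh mouse. The other groups overlapped both, at 891 to 1014 FPKM in WT_HighP, 889 to 1075 FPKM in AD_LowP and 909 to 1058 FPKM in AD_HighP. Scd2 weighs most on that sum.

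On vehicle, cortex of 5xFAD mice held more transcript of 8 of the 31 genes than cortex of wild-type mice, and less of none. They were Acat2, Mvk and Mvd of the mevalonate branch, Fdft1 and Sqle of squalene synthesis and oxidation, Nsdhl of the late pathway, the cholesterol carrier gene Stard4, and Acly, which supplies acetyl-CoA. The rises were between 1.24-fold and 1.72-fold. A gene was called when its adjusted p was under 0.05 (limma on log2(FPKM + 0.5), two-sided, Benjamini-Hochberg over the 16450 tested genes). Of all tested genes, 2.83% were called higher and 0.274% lower in this comparison. The log2 difference was above 0 for 29 of the 31 members, against 46.1% of all tested genes, and its median was 0.28 for the members and -0.02 for all tested genes. At an unadjusted p under 0.05 there were 15 members, against 11.4% of all tested genes. In bulk tissue, more cells of a type and more RNA per cell cannot be told apart.

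**Figure D1:**
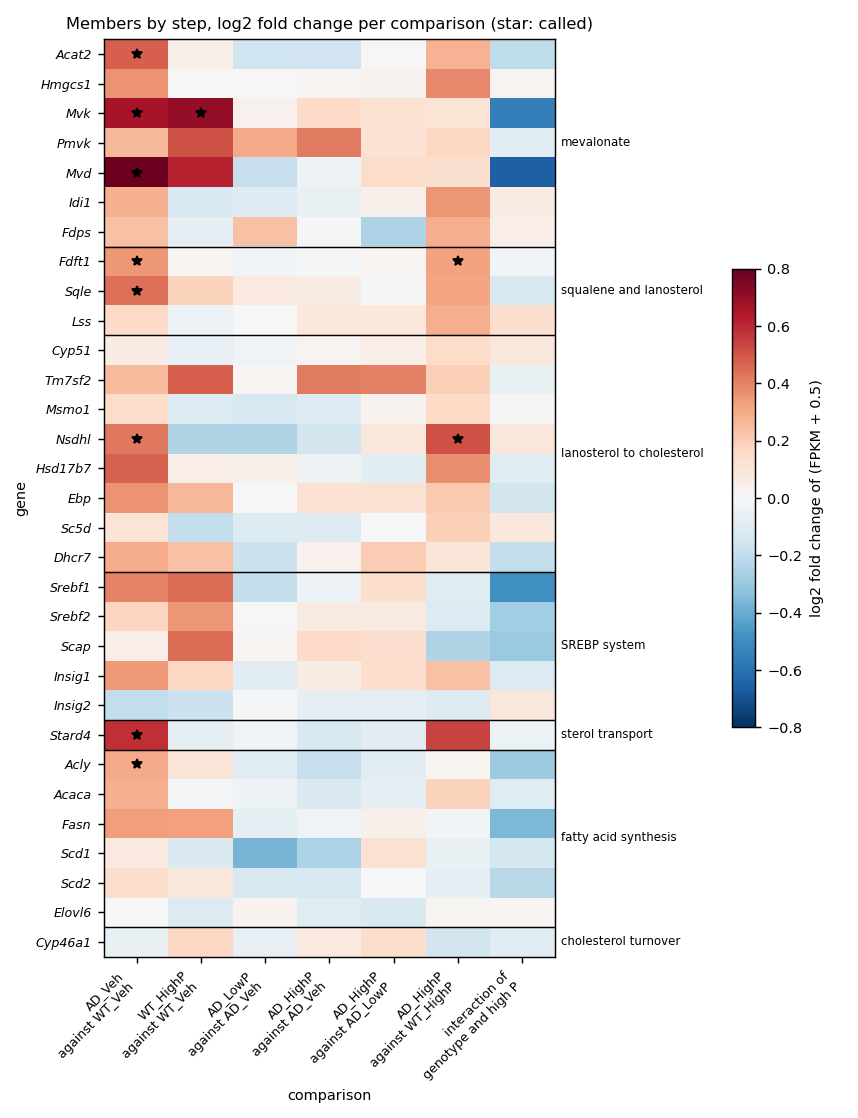
Log2 fold change of (FPKM + 0.5) of the 31 members (rows, grouped by step) in the 7 comparisons (columns), red for higher and blue for lower in the group named first, with a star where limma called the gene. Stars stand on 8 members in AD_Veh against WT_Veh, 1 in WT_HighP against WT_Veh and 2 in AD_HighP against WT_HighP.

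In the mevalonate branch all 7 genes had positive differences, with a median log2 difference of 0.36, and 3 were called. Acat2, which makes acetoacetyl-CoA in the cytosol, was at 12.95, 13.28, 16.59, 12.95 and 14.58 FPKM in the WT_Veh mice and at 20.95, 21.56, 20.52, 17.60 and 18.42 FPKM in the AD_Veh mice. The lowest AD_Veh mouse was above the highest WT_Veh mouse, and the means were 14.07 ± 1.56 and 19.81 ± 1.71 FPKM (SD, n = 5 each here and throughout). The log2 difference of Acat2 was 0.48 with an SE of 0.09 (limma, adjusted p = 0.00119). It was called without any single mouse of the 2 groups, with adjusted p between 0.000395 and 0.00574, and was lost in females alone (0.155; range over 40 settings 2.62e-05 to 0.155). Reads of Acat2 could be split with Acat3, a copy with 97.7% identity over 1477 bp that stood at 1.04 FPKM. Tcp1, at 28.4 FPKM, matches Acat2 on the opposite strand with 98.65% identity over 445 bp. Tcp1 was not called (log2 -0.08, limma adjusted p = 0.816). The part of its reads in the Acat2 value was not tested.

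Mvd, the decarboxylase that makes isopentenyl diphosphate, had the largest difference of the 31. It was at 6.30, 7.66, 7.48, 4.01 and 4.08 FPKM in WT_Veh and at 11.42, 13.01, 10.33, 9.26 and 7.65 FPKM in AD_Veh. Mice 4 and 5 were the lowest of both groups, and the groups touched: the lowest AD_Veh mouse was just under the highest WT_Veh mouse. The mean rose from 5.91 ± 1.78 to 10.33 ± 2.05 FPKM, a log2 difference of 0.78 (SE 0.19, limma adjusted p = 0.0192). Mvk, mevalonate kinase, was at 5.79, 4.80, 5.07, 2.90 and 3.13 FPKM in WT_Veh and at 8.03, 7.80, 7.20, 8.06 and 4.30 FPKM in AD_Veh. Only AD_Veh mouse 5 fell within the wild-type range of Mvk. Its mean rose from 4.34 ± 1.27 to 7.08 ± 1.59 FPKM (log2 0.66, SE 0.18, limma adjusted p = 0.0435). Both calls rested on few mice: that of Mvd was lost without WT_Veh mouse 4 or 5 or AD_Veh mouse 1 or 2 (adjusted p 0.0584 to 0.0787), and that of Mvk without WT_Veh mouse 4 or 5 or AD_Veh mouse 1, 2, 3 or 4 (0.103 to 0.163).

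The other mevalonate genes were not called. Hmgcs1, the cytosolic HMG-CoA synthase, had means of 46.58 ± 8.98 and 59.24 ± 5.47 FPKM (log2 0.36, limma adjusted p = 0.16). WT_Veh mouse 3, at 60.35 FPKM, was among the AD_Veh mice, which spanned 51.57 to 64.80 FPKM, and the other WT_Veh mice were at 47.01 FPKM or lower. The isomerase gene Idi1 (log2 0.28), phosphomevalonate kinase Pmvk (0.26) and Fdps (0.23) had adjusted p of 0.57 or more by limma. Idi1 shares 684 identical bases with the processed pseudogene Gm13502, so their reads could be split.

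Squalene is made and then oxidised by the products of Fdft1 and Sqle, and both rose. Fdft1 was at 22.58, 21.84, 22.40, 19.78 and 20.91 FPKM in WT_Veh and at 25.80, 24.78, 28.96, 30.96 and 27.27 FPKM in AD_Veh. Every AD_Veh mouse was above every WT_Veh mouse, and the mean rose from 21.50 ± 1.16 to 27.55 ± 2.47 FPKM (log2 0.35, SE 0.07, limma adjusted p = 0.00417). Sqle, squalene epoxidase, was at 11.70, 10.49, 13.99, 9.05 and 10.07 FPKM in WT_Veh and at 15.57, 13.68, 14.88, 15.89 and 15.30 FPKM in AD_Veh. WT_Veh mouse 3 overlapped the lowest AD_Veh mouse for Sqle. The means were 11.06 ± 1.89 and 15.07 ± 0.86 FPKM (log2 0.44, SE 0.10, limma adjusted p = 0.0099). Both calls were made without each single mouse of the 2 groups, with the largest adjusted p at 0.0195 for Fdft1 and 0.0445 for Sqle. Both were lost when only the 2 groups were fitted (0.0529 and 0.0713), in males alone (0.238 and 0.293) and in females alone (0.0591 and 0.0772). Over 40 settings the adjusted p was 0.00268 to 0.238 for Fdft1 and 0.0011 to 0.293 for Sqle.

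Fdft1 lies at chr14:63145150-63179578 (mm10, minus strand), and 18.3% of its exon bases overlap exons of Ctsb on the opposite strand. Ctsb, a lysosomal protease gene, stood at 88.2 FPKM in WT_Veh and 136 FPKM in AD_Veh and was itself called higher (log2 0.62, limma adjusted p = 0.00025). The libraries keep strand, but no source used here says whether the counting used it, so the part of Ctsb reads in the Fdft1 value was not tested. Lanosterol synthase Lss, the next step, had means of 3.43 ± 0.28 and 3.88 ± 0.20 FPKM and was not called (log2 0.16, limma adjusted p = 0.459).

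Among the 8 genes between lanosterol and cholesterol all differences were positive, with a median log2 value of 0.27, and 1 gene was called. Nsdhl, a sterol 4-alpha-carboxylate dehydrogenase encoded at chrX:72918557-72958514, was at 6.54, 7.08, 9.07, 6.47 and 8.10 FPKM in WT_Veh and at 9.33, 9.47, 9.04, 9.80 and 13.18 FPKM in AD_Veh. The groups touched at WT_Veh mouse 3 and AD_Veh mouse 3, and AD_Veh mouse 5 stood far above the rest. The mean rose from 7.45 ± 1.11 to 10.16 ± 1.71 FPKM (log2 0.42, SE 0.11, limma adjusted p = 0.0276). Its call was lost without WT_Veh mouse 1, 2 or 4 or AD_Veh mouse 5 (adjusted p 0.0658 to 0.0979).

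Hsd17b7, a 3-ketosteroid reductase, came close, with means of 5.41 ± 0.67 and 7.74 ± 1.45 FPKM (log2 0.47, limma adjusted p = 0.0632). Ebp, the sterol isomerase, followed with 4.26 ± 0.68 and 5.63 ± 1.01 FPKM (log2 0.36, adjusted p = 0.118). Dhcr7, the last reductase of one arm of the pathway, differed by 0.29 and Tm7sf2 by 0.25. Msmo1 (0.15), Sc5d (0.11) and Cyp51 (0.06), which act on the methyl groups and the ring double bonds, had the smallest differences of the 8. Members of one pathway thus differed in size of response from a log2 value of 0.06 for Cyp51 to 0.78 for Mvd, and differences between genes were not tested.

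Promoter sequence was at hand for 25 of the 31 genes (RefSeq, GRCm38.p6), in a window of 300 bases from 250 before the gene start to 50 after it. It was lacking for Fdps, Fdft1, Sqle, Stard4, Scd1 and Scd2. A gene was counted when any of its windows held the letters on either strand. CCAAT, the letters bound by NF-Y, was found for 21 of the 25 genes (84%), against 42.2% of 11175 tested genes. Of all 32851 single windows, 37.4% held it. GGGCGG, the letters of Sp1 sites, was also found for 21 of 25, against 67.2% of tested genes. TCACNCCAC, a form of the sterol regulatory element that SREBPs bind, was found for Hmgcs1 alone, against 1.40% of tested genes and 1.24% of single windows. Of the matches in capitals here none overlaps another, and a match of letters does not show a bound site. The 6 sequences printed here are the called genes that had a window (Acat2, Mvk, Mvd, Nsdhl and Acly), with Hmgcs1 as the holder of the sterol element. Each is the 200 bases before the gene start, 5′ to 3′ on the gene's strand, with CCAAT, its reverse complement and the sterol element in capitals.
Hmgcs1, chr13:119690151-119690350, plus strand: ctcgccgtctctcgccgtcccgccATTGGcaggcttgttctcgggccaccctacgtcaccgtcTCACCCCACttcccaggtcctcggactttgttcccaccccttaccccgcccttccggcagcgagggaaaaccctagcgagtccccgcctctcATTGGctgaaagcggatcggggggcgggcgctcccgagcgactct
Mvk, chr5:114444069-114444268, plus strand: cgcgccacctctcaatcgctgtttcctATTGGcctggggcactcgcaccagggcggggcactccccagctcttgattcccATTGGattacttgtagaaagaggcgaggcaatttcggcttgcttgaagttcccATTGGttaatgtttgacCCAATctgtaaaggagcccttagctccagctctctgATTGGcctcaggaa
Mvd, chr8:122443423-122443622, minus strand: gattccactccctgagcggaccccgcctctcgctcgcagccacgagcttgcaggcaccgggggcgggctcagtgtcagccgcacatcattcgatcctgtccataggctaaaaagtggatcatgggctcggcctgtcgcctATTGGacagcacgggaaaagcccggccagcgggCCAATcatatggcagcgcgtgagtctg
Nsdhl, chrX:72918321-72918520, plus strand: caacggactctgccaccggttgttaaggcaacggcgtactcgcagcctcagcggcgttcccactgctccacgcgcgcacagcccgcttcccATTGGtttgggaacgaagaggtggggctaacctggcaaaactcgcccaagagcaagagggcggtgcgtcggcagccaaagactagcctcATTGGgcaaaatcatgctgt
Acat2, chr17:12960726-12960925, minus strand: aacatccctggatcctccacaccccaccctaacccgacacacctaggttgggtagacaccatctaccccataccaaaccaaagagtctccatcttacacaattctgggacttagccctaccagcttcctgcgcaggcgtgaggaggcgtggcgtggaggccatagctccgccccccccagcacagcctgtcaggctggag
Acly, chr11:100528001-100528200, minus strand: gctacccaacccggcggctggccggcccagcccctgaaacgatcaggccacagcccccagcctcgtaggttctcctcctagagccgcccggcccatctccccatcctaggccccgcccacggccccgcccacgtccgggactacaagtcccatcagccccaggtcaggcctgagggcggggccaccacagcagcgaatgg
Mvk holds 5 CCAAT matches in the stretch shown, the first starting 173 bases before the gene start, and Hmgcs1 holds its sterol element 137 bases before the start, between CCAAT matches at 176 and 45 bases. Acat2 and Acly show no capital letters in these 200 bases. A 300-base window of Acly holds CCAAT outside them, and no window of Acat2 holds it. Mvd and Nsdhl hold 2 CCAAT matches each.

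**Figure D2:**
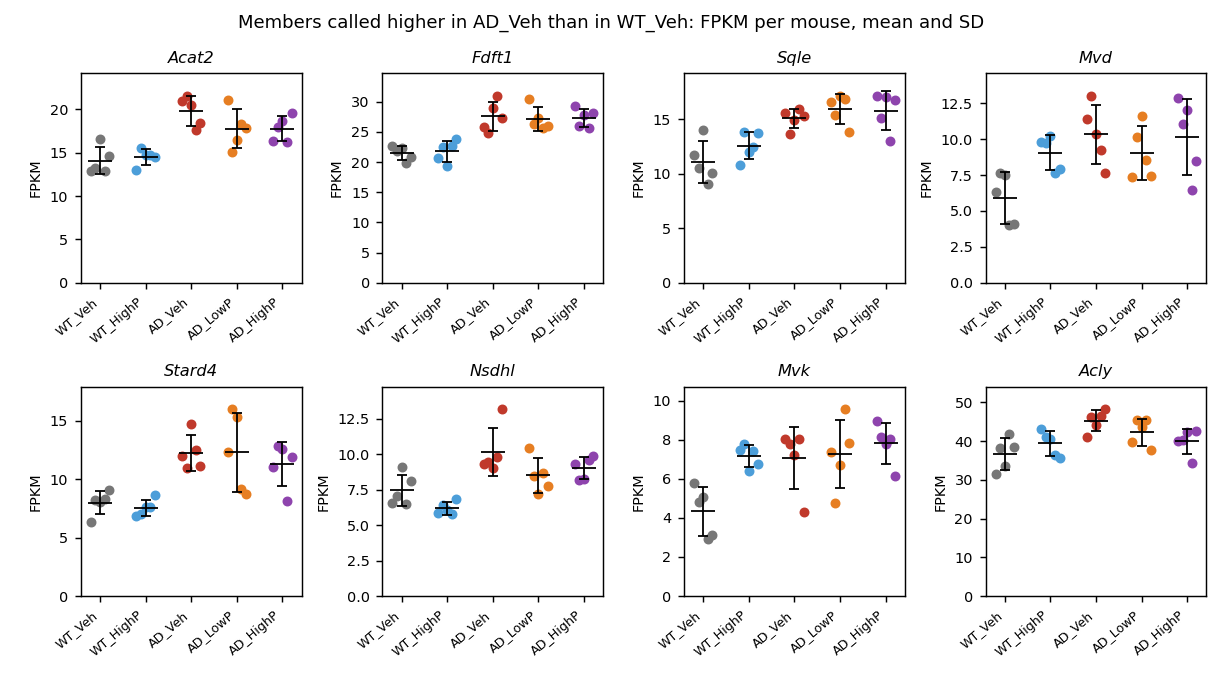
FPKM of the 8 members called in AD_Veh against WT_Veh, 1 dot per mouse in each of the 5 groups, with the group mean and SD as a bar with whiskers and axes that start at 0. For Acat2, Fdft1 and Stard4 no AD_Veh mouse lies as low as any WT_Veh mouse.

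The genes of the SREBP system were not called in AD_Veh against WT_Veh. Srebf1, whose products favour fatty acid genes, had means of 13.47 ± 1.73 and 18.05 ± 3.24 FPKM (log2 0.40, limma adjusted p = 0.183), with AD_Veh mice 1, 2 and 3 above all WT_Veh mice and mice 4 and 5 within their range. Srebf2, the main driver of sterol genes, had means of 42.93 ± 5.20 and 48.53 ± 6.30 FPKM (log2 0.17, adjusted p = 0.636), and Scap differed by 0.05. Insig1 is itself an SREBP target and restrains SCAP. It was at 21.44, 26.31, 27.20, 24.19 and 28.04 FPKM in WT_Veh and at 35.03, 37.16, 44.79, 23.25 and 25.70 FPKM in AD_Veh (log2 0.34, SE 0.20, limma adjusted p = 0.561). Mice 1 to 3 of AD_Veh were all above the wild-type mice, and mice 4 and 5 were within their range. Insig2 went the other way, from 14.31 ± 1.38 to 12.41 ± 0.71 FPKM (log2 -0.19, adjusted p = 0.442), and was 1 of only 2 members with a negative difference.

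Stard4, which carries cholesterol between membranes and is a sterol-regulated gene, was at 6.37, 8.20, 8.03, 8.30 and 9.12 FPKM in WT_Veh and at 12.01, 10.95, 14.74, 12.50 and 11.10 FPKM in AD_Veh. The groups did not overlap, and the mean rose from 8.0 ± 1.0 to 12.26 ± 1.53 FPKM (log2 0.59, SE 0.15, limma adjusted p = 0.0233). The call was lost without WT_Veh mouse 1 or AD_Veh mouse 3 or 4 (adjusted p 0.056 to 0.0928). Acat2, Fdft1 and Stard4 were the 3 members whose AD_Veh mice were all above all WT_Veh mice, a separation seen in 3.02% of all tested genes. No member had all AD_Veh mice below all WT_Veh mice, which 0.821% of tested genes had.

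Of 49 further genes of sterol and fatty acid handling that were tested, 6 rose and none fell in AD_Veh. Among them were Ch25h, cholesterol 25-hydroxylase (log2 1.07, from 0.434 to 1.45 FPKM), the lysosomal cholesterol carrier Npc2 (0.88, from 7.47 to 14.1 FPKM), the cholesterol exporter Abca1 (0.52), the ubiquitin ligase gene Mylip (0.47), and the fatty acid binding protein gene Fabp5 (0.36). Their adjusted p by limma lay between 3.51e-06 and 0.0157. The median log2 difference over the 49 genes was 0.12.

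The 6 genes of fatty acid synthesis gave 1 call. Acly, which splits citrate into acetyl-CoA for both pathways, was at 31.38, 38.26, 33.53, 41.71 and 38.37 FPKM in WT_Veh and at 41.10, 46.25, 44.09, 46.59 and 48.26 FPKM in AD_Veh. WT_Veh mouse 4 overlapped the lowest AD_Veh mouse. The mean rose from 36.65 ± 4.14 to 45.26 ± 2.76 FPKM (log2 0.31, SE 0.08, limma adjusted p = 0.0435). This call was not firm. It was lost in 8 of the 10 fits that left out 1 mouse of the 2 groups, all but those without WT_Veh mouse 4 or AD_Veh mouse 1 (adjusted p 0.0558 to 0.126), and in 9 of 15 other settings. Of the 8 calls, those of Acat2 and Stard4 were made when only the 2 groups were fitted, that of Mvd in females alone, and those of Acat2, Mvd and Stard4 in males alone. Fatty acid synthase Fasn (log2 0.34) and acetyl-CoA carboxylase Acaca (0.28) were not called, with limma adjusted p of 0.191 and 0.284. Acaca shares 99.2% identity over 6118 bp with the processed pseudogene Gm5182, at 2.84 FPKM. The desaturases Scd2 (0.14) and Scd1 (0.08) and the elongase Elovl6 (0.00) differed least. Scd1 and Scd2 are 95.5% identical over 623 bp, so that their reads could be split. Cyp46a1, the cholesterol 24-hydroxylase of neurons, had means of 64.52 ± 3.04 and 62.00 ± 5.30 FPKM (log2 -0.06, adjusted p = 0.931).

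Markers of other cell types moved with this comparison. All 12 oligodendrocyte and myelin markers had positive differences, with a median log2 value of 0.40 and none called, and their summed level was 497 to 1101 FPKM in WT_Veh and 784 to 1498 FPKM in AD_Veh. Of 12 microglia markers 10 were called higher, with sums of 131 to 205 and 447 to 685 FPKM, and so were 5 of 6 reactive astrocyte markers. Of 10 astrocyte markers 1 was called higher, with sums of 682 to 847 and 751 to 892 FPKM. Their part in the rise of the sterol genes was not tested. No gene was called among 9 excitatory cortical neuron, 6 inhibitory neuron, 8 endothelial and mural, 5 choroid plexus, 6 striatum and 3 hippocampus markers or 8 mitochondrially encoded genes.

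Values also moved with the GC content of transcripts. Across all tested genes the Spearman correlation of the log2 difference with GC content was 0.34, and after each library was corrected for GC content the median difference of the members was 0.23 and 9 were called. Of all 16450 tested genes 473 were then called higher and 78 lower, and their median difference was -0.03. Hmgcs1 (log2 0.42, adjusted p = 0.0239) and Hsd17b7 (0.52, 0.0363) were called after that correction and Acly was not (0.25, 0.19). Over 25 alternative settings the adjusted p was 0.0239 to 0.481 for Hmgcs1, 0.00892 to 0.776 for Hsd17b7 and 0.0182 to 0.37 for Acly.

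**Figure D3:**
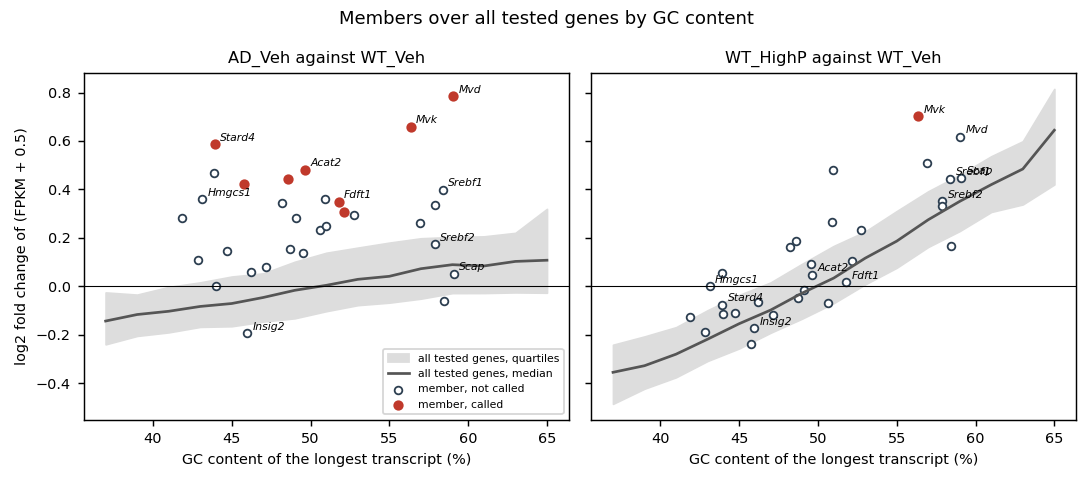
Log2 fold change of (FPKM + 0.5) of the 31 members (dots, filled where called) against the GC content of the gene's longest transcript, over the median and quartiles of all tested genes in GC bins. On vehicle (left) most members lie above the line of all genes at any GC content. For high P in wild type (right) members rise with GC content as all genes do. Some lie outside the quartiles there, such as Mvk, Pmvk, Mvd and Tm7sf2 above and Cyp46a1 below.

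The genotype comparison was also made in the mice given high P. In AD_HighP against WT_HighP, 2 of the 31 genes were called higher and none lower, against 1.5% and 0.255% of all tested genes. Nsdhl was at 5.89, 6.44, 6.04, 5.75 and 6.86 FPKM in WT_HighP and at 9.33, 8.21, 8.26, 9.62 and 9.86 FPKM in AD_HighP. The groups did not overlap (log2 0.51, SE 0.11, limma adjusted p = 0.00804), and the call was made without any single mouse of these groups. Fdft1 was at 20.73, 22.47, 19.35, 22.60 and 23.74 FPKM in WT_HighP and at 29.25, 25.97, 27.76, 25.65 and 28.08 FPKM in AD_HighP. They too were apart (log2 0.32, SE 0.07, limma adjusted p = 0.0132), and the call was lost without WT_HighP mouse 3 (0.0616). Ctsb on the opposite strand was again higher (log2 0.50, adjusted p = 0.00571).

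Without the 4 libraries in which the choroid plexus gene Ttr exceeded 100 FPKM (WT_HighP mice 1 and 2, AD_HighP mice 1 and 4), neither was called, with adjusted p of 0.312 for Fdft1 and 0.361 for Nsdhl (0.000345 to 0.549 and 6.48e-05 to 0.361 over 25 settings). That fit held 3 mice a group. In all, 6 members had every AD_HighP mouse above every WT_HighP mouse, against 3.22% of all tested genes: Acat2, Hmgcs1, Lss and Sc5d beside the 2 called. None had them all below, against 2.55% of tested genes. Lss (log2 0.29, limma adjusted p = 0.0554) and Stard4 (0.54, 0.0636) came closest to a call. Stard4 was at 6.82 to 8.63 FPKM in WT_HighP and 8.15 to 12.84 FPKM in AD_HighP, where mouse 4 alone fell into the wild-type range. Mvk, Mvd and Acly, which were called on vehicle, were not called here. Mvk had means of 7.16 ± 0.57 FPKM in WT_HighP and 7.81 ± 1.03 FPKM in AD_HighP. For Mvd they were 9.06 ± 1.19 and 10.18 ± 2.64 FPKM, and for Acly 39.39 ± 3.2 and 39.89 ± 3.3 FPKM. Over 25 alternative settings the limma adjusted p of these 3 genes was 0.473 or more. The sterol enzymes all had positive differences, 7 of 7, 3 of 3 and 8 of 8 in the order of the pathway. Of the 5 SREBP system genes 1 did and of the 6 fatty acid genes 3, against 49.6% of all tested genes. The Spearman correlation of the log2 difference with GC content was -0.34 across all tested genes and -0.59 over the 31 members. For the SREBP system genes the median log2 difference was -0.10, and -0.02 after GC correction. The part of GC content in this split was not tested. Of the 49 further genes Npc2, Ch25h and Fabp5 rose.

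Markers moved here too. Of the microglia markers 10 of 12 were called higher in AD_HighP and of the reactive astrocyte markers 5 of 6. The 6 striatum markers had a median log2 difference of -1.46 with none called, and their summed level was 88.9 to 665 FPKM in WT_HighP and 43.6 to 335 FPKM in AD_HighP. The 12 oligodendrocyte and myelin markers had a median of 0.09 with none called, and 1 of 6 inhibitory neuron markers was called lower. The part of these cells in the values of the sterol genes was not tested.

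Over all 25 mice, Fdft1 was the only member whose 15 5xFAD mice (24.78 to 30.96 FPKM) were all above the 10 wild-type mice (19.35 to 23.74 FPKM), a separation found in 0.985% of tested genes. Sqle came near to it, with 12.98 to 17.13 FPKM against 9.05 to 13.99 FPKM. For Acat2 the ranges were 15.12 to 21.56 and 12.95 to 16.59 FPKM. No member had all 5xFAD mice below the wild-type mice. The group means of each genotype comparison come from its own 10 mice, and no mouse is in both. The tests of both take their variances from the same fit over all 25 libraries, so they are not independent.

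High P in wild-type mice changed 1 member past the threshold. Mvk was at 7.46, 7.76, 6.40, 7.43 and 6.74 FPKM in WT_HighP, all above the WT_Veh mice, whose highest value was 5.79 FPKM (log2 0.70, SE 0.18, limma adjusted p = 0.0433). Of all tested genes 1.39% were called higher and 1.79% lower. The call was lost in 8 of the 10 fits that left out 1 mouse of these groups, all but those without WT_Veh mouse 1 or WT_HighP mouse 5 (adjusted p 0.0542 to 0.135). After GC correction the log2 difference of Mvk was 0.46 with an adjusted p of 0.177, and over all alternative settings the adjusted p was 0.00542 to 0.298. This call of Mvk and its call in AD_Veh against WT_Veh share the WT_Veh mice.

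The SREBP system came next. Scap was at 12.61, 11.57, 10.57, 10.31 and 9.98 FPKM in WT_Veh and at 15.97, 15.78, 15.24, 14.10 and 14.74 FPKM in WT_HighP (log2 0.45, limma adjusted p = 0.0602). Srebf2 was at 36.54 to 49.97 FPKM in WT_Veh and 52.83 to 57.78 FPKM in WT_HighP (log2 0.35, adjusted p = 0.069). Neither gene's groups overlapped, and neither passed the threshold. Exons of Scap overlap those of 5830462I19Rik on the opposite strand over 13.2% of their length. Srebf1 (log2 0.45, adjusted p = 0.0661), Mvd (0.62, 0.0621) and Fasn (0.33, 0.0912) had differences of like size. Of the members 4 had all WT_HighP mice above all WT_Veh mice (Mvk, Srebf2, Scap and Fasn), against 4.72% of tested genes, and Sc5d had them all below, against 4.69%. At an unadjusted limma p under 0.05 there were 10 of the 31 members, against 27.8% of all tested genes.

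These members are rich in G and C. Scap, Mvd, Srebf1, Srebf2 and Fasn have a GC content of 57.9% to 59.1%, and the log2 difference of all tested genes rose with GC content, with a Spearman correlation of 0.71 (0.81 over the 31 members, which are not independent). The median over all tested genes with 58% to 60% GC was 0.35. After GC correction the differences were 0.10 for Scap, 0.05 for Srebf2, 0.13 for Srebf1, 0.28 for Mvd and 0.03 for Fasn. The WT_HighP libraries had a mean slope of log2 level on GC content of 0.17 ± 0.05 per 10 percentage points relative to the mean of all libraries, and the WT_Veh libraries -0.15 ± 0.15. The share of reads from mitochondrial genes was 4.32% and 6.28%. Limma called 3 of the 8 genes of the mitochondrial genome lower and 1 higher. The 5 choroid plexus markers had a median log2 difference of 0.92 with none called. Their part in these values was not tested. No batch is named in the labels, so group and library preparation cannot be told apart. Of the 49 further genes, Mid1ip1, an activator of acetyl-CoA carboxylase, rose (log2 0.68, limma adjusted p = 0.0356) and Ggps1, which makes geranylgeranyl diphosphate, fell by 0.40 (adjusted p = 0.0468).

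**Figure D4:**
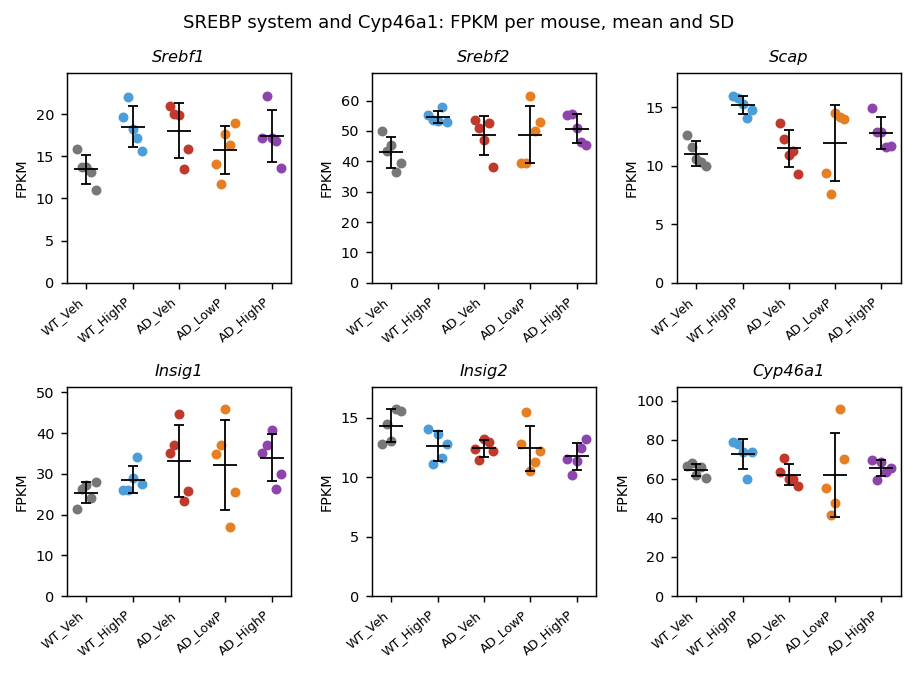
FPKM of the 5 SREBP system genes and of Cyp46a1, 1 dot per mouse in each of the 5 groups, with the group mean and SD and axes that start at 0. Scap and Srebf2 separate WT_HighP from WT_Veh, and Insig1 splits each 5xFAD group into 3 higher and 2 lower mice.

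In 5xFAD mice neither dose of P changed a member past the threshold. In AD_LowP against AD_Veh limma called 0 members higher and 0 lower, as it did for 0% of all tested genes each way, with 2 members at an unadjusted p under 0.05 (Nsdhl and Scd1) against 2.98% of all tested genes; voom on reads recovered from the FPKM also called 0. Scd1, a desaturase, was at 61.66, 62.91, 73.77, 65.38 and 54.43 FPKM in AD_Veh and at 52.31, 55.71, 65.02, 33.23 and 43.53 FPKM in AD_LowP. AD_LowP mice 2 and 3 were within the AD_Veh range and the other 3 below it (log2 -0.37, SE 0.14, limma adjusted p = 1). The largest positive value was that of Pmvk (log2 0.30).

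In AD_HighP against AD_Veh limma and voom again called 0 members, against 0.00608% of all tested genes called higher and 0% lower, and 3 members had an unadjusted p under 0.05 (Pmvk, Tm7sf2 and Acly), against 5.98% of all tested genes. Tm7sf2 was at 1.97 ± 0.58 FPKM in AD_Veh and 2.77 ± 0.67 FPKM in AD_HighP (log2 0.42, limma adjusted p = 0.78). Pmvk was at 7.83 ± 2.11 and 10.37 ± 1.29 FPKM (log2 0.41, adjusted p = 0.78). All 6 fatty acid genes had negative differences, from -0.26 for Scd1 to -0.03 for Fasn, none of them called. Of all 31 members 13 had positive differences, against 50.6% of all tested genes. The 2 comparisons share the AD_Veh mice. None of the 49 further genes was called at either dose, with a median log2 difference of -0.07 at the low dose and -0.05 at the high dose. Beside these values, the 6 striatum markers had medians of -1.09 and -1.77 with none called, with sums of 190 to 448 FPKM in AD_Veh, 49.3 to 379 FPKM in AD_LowP and 43.6 to 335 FPKM in AD_HighP. Their part in the members' values was not tested. The high dose against the low dose gave 0 members by either tool, and 0% of all tested genes each way. None of the members had an unadjusted p under 0.05, against 6.19% of all tested genes.

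The 8 genes that were higher in AD_Veh than in WT_Veh can be followed through the treated 5xFAD mice. Fdft1 had means of 27.55 ± 2.47, 27.09 ± 1.95 and 27.34 ± 1.51 FPKM in AD_Veh, AD_LowP and AD_HighP. Sqle had 15.07 ± 0.86, 15.94 ± 1.38 and 15.78 ± 1.77 FPKM, and Acat2 19.81 ± 1.71, 17.77 ± 2.25 and 17.76 ± 1.46 FPKM. Log2 differences from AD_Veh lay between -0.24 (Nsdhl at the low dose) and 0.16 (Mvk at the high dose) for all 8, with SEs of 0.07 to 0.19. The test found no difference, which does not show that the levels are equal.

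The interaction asks whether high P acted differently in the 2 genotypes. Limma and voom called 0 members, as they did 0% of all tested genes, and 5 members had an unadjusted p under 0.05 (Mvk, Mvd, Srebf1, Acly and Fasn), against 6.92% of all tested genes. The largest values were -0.66 for Mvd (SE 0.27), -0.55 for Mvk (SE 0.25) and -0.49 for Srebf1 (SE 0.20), each with a limma adjusted p of 0.71. For Mvd the log2 effect of high P was 0.62 in wild type and -0.04 in 5xFAD. After GC correction the interaction values of Mvd, Mvk and Srebf1 were -0.44, -0.39 and -0.29.

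Mice of AD_LowP differed widely in some members. AD_LowP had the largest SD of the 5 groups for 9 of the 18 sterol enzymes and for 20 of the 31 members. For the SD divided by the mean these counts were 7 and 19, and WT_Veh also led for 7 of the enzymes. The same count was not made over all tested genes, so a trait of these members is not shown. The members with values here were chosen after those values were seen. Msmo1, the C4 methyl oxidase, was at 21.92, 20.23, 15.46, 11.61 and 12.67 FPKM there, with an SD of 4.55 against 1.05 to 1.83 in the other groups. Sc5d was at 18.46, 17.33, 11.64, 12.25 and 11.91 FPKM, Stard4 at 12.29, 16.00, 15.33, 9.13 and 8.77 FPKM, and Cyp46a1 at 55.20, 41.30, 47.46, 95.68 and 69.90 FPKM. Mice 1 and 2 were the highest for Msmo1 and Sc5d, mice 1 to 3 were low for Cyp46a1, and mice 4 and 5 were low for Msmo1 and Stard4. The GC slopes of the 5 libraries were -0.28, -0.28, 0.02, 0.16 and 0.16, and their share of mitochondrial reads ran from 3.63% to 6.83%. Their part in this spread was not tested.

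Within groups, the sterol enzymes varied together only in part. After group means were subtracted, 106 of the 153 pairs among the 18 enzymes were positively correlated over the 25 mice, with a median r of 0.20 (120 pairs and 0.25 after GC correction). All values come from the same libraries, so depth and base composition are shared. The genes closest to the mean of the other enzymes were Sqle (r = 0.71), Hmgcs1 (0.67), Dhcr7 (0.64), Msmo1 (0.55) and Cyp51 (0.52). Among the others Insig1 (0.50) and Stard4 (0.43) were most like the enzymes, while Srebf2 stood at 0.13 and Srebf1 at 0.02. After GC correction these were 0.48 for Insig1, 0.45 for Stard4, 0.38 for Srebf2 and 0.11 for Srebf1. Insig2 (-0.29), Cyp46a1 (-0.23) and Acly (-0.19) ran the other way. Outside these lists the 5 genes most like the enzyme mean were Magi1 (0.72), Gm25193 (0.70), Sccpdh (0.69), Med11 (0.69) and Egln3 (0.69), of which Sccpdh and Med11 were also among the first 5 after GC correction.

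Insig1 split the 5xFAD mice in a way that the groups did not. Mice 1, 2 and 3 of each group carried transcripts of Y-linked genes and almost no Xist, and mice 4 and 5 the reverse, so each group held 3 males and 2 females by its RNA; the labels give no sex. In 5xFAD the 9 males had 34.8 to 46.0 FPKM of Insig1 and the 6 females 17.1 to 30.1 FPKM, with no overlap. The share of all tested genes with such a separation of the sexes was not counted. The means were 38.7 ± 4.2 (SD, n = 9) and 24.7 ± 4.3 FPKM (SD, n = 6). In wild type the ranges lay over each other, at 21.4 to 29.0 FPKM in 6 males and 24.2 to 34.0 FPKM in 4 females.

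The sexes were then compared across all genes, a comparison chosen after these values had been seen (limma, group means with a term for sex in each genotype). In 5xFAD, Insig1 was higher in males by a log2 value of 0.65 (SE 0.10, adjusted p = 0.00273), and it was the only one of the 31 members called. At an unadjusted p under 0.05 there were 11 members, against 9.64% of all tested genes. Of all tested genes 0.0365% were called higher and 0.0122% lower in males. That is 6 and 2 genes, and the other 7 were Xist, Eif2s3x, Ddx3y, Eif2s3y, Uty, Kdm5d and Gm29650. The value for Insig1 was 0.55 to 0.71 over 29 other settings, with adjusted p of 0.00134 to 0.018. In wild type it was -0.12 (SE 0.12, limma adjusted p = 0.721), where 0.0304% of all tested genes were called higher and 0.0243% lower and no member was, with 2 members at an unadjusted p under 0.05 against 11.4% of all tested genes. The difference between the genotypes was 0.77 (SE 0.16) with an adjusted p of 0.197, and 0.066 to 0.485 over the other settings, so it did not pass the threshold; limma called 0% of tested genes there, with 6 members at an unadjusted p under 0.05 against 12% of all tested genes.

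**Figure D5:**
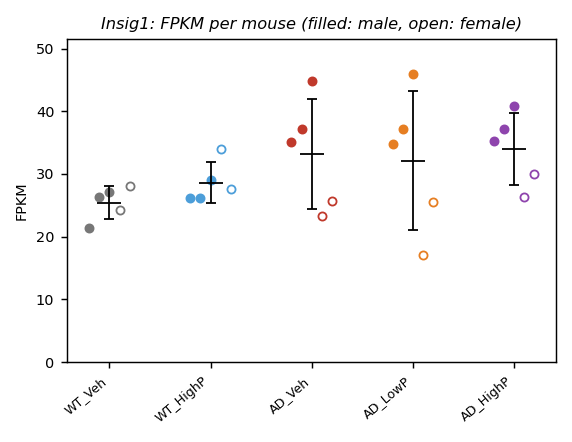
FPKM of Insig1, 1 dot per mouse in each of the 5 groups, filled for males and open for females by their RNA, with the group mean and SD and an axis that starts at 0. In each 5xFAD group the 3 males lie above the 2 females, and in the wild-type groups the sexes overlap.

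In males alone, AD_Veh against WT_Veh gave a log2 difference of 0.63 for Insig1 (limma adjusted p = 0.0193), and in females alone -0.09 (0.849), the ends of its range over 25 alternative settings. Some other members were also higher in 5xFAD males without passing the threshold. Mvd was higher in males by 0.44 (adjusted p = 0.183), Stard4 by 0.34 (0.252) and Hsd17b7 by 0.33 (0.23), and 24 of the 31 members had positive values with a median of 0.08, against 19 of 31 with a median of 0.02 in wild type. The share of positive values over all tested genes was not counted for the sexes, so a lean of these members is not shown. Mvd was higher in males in wild type too (log2 0.54, adjusted p = 0.149). Sex and mouse number are the same split in these libraries, so that anything else shared by mice numbered 4 and 5 cannot be told apart from sex.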

How the data were processed

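The deposited table holds FPKM values that the authors computed per gene for each of the 25 libraries, beside identifiers, coordinates and lengths, per the file headers. Libraries were made from poly(A) RNA by a strand-specific protocol, per the labels' protocols. HISAT2 and mm10 are named in the submitters' processing notes; what counted the reads, and with which annotation, was not given in the sources used here. FPKM times gene length came out as whole multiples of 1 read's value for 100% of values (tolerance 0.01 of a read), which gave reads per library.

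The 31 members, and the lists of further genes and markers, were chosen with earlier results of these data known. Genes at 0.5 FPKM or more in at least 5 libraries (16450) were tested on log2(FPKM + 0.5), which understates changes of low genes, with limma 3.58.1 in R 4.3.3: a mean per group over all 25 libraries, 20 residual degrees of freedom, moderated variances with a trend, and Benjamini-Hochberg adjustment within each of 7 contrasts. The script was tested on simulated data. Called members are given in full and followed through all groups, and the others by ranges, with the largest and smallest named. Of the further genes the called ones are named, at most 6 a contrast, except some not reported here; the 5 genes most like the enzymes were taken by Pearson correlation. Members singled out beyond that rule were chosen after their values were seen. The series design has the samples of a group as separate mice. The smallest chi-square per gene between libraries of a group was 8.13, so none was counted as a repeat.

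GC content came from the longest GENCODE transcript (99.9% of tested genes), and the correction removed a smooth curve with 5 degrees of freedom from each library's log2 values. Copies and exon overlap used the same annotation. Figures were drawn with matplotlib 3.10.9. Other settings were pseudocounts of 0.1 and 1, no filter or a filter of 1 FPKM, only the groups of a contrast, upper-quartile scaling, the replicate number as a block, a sex term, array weights, GC correction with and without the block, and each library left out. Voom, the 4 libraries with high Ttr left out, each sex alone and the comparison of the sexes were added after the data had been seen.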

Additional observations from a re-analysis of the deposited data

Results flagged for a closer look

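In each group of 5 mice, the highest and the lowest FPKM of each member were set against the others by Dixon's criterion at the 95% level. Of 155 such groups 9 held a value that stood apart, where chance gives about 1 in 20, or 7.75. AD_Veh mouse 5 gave 3 of them: Mvk at 4.302 FPKM (the others 7.199 to 8.059), Lss at 4.24 (3.753 to 3.831) and Nsdhl at 13.18 (9.043 to 9.798). Without this mouse Mvk was still called in AD_Veh against WT_Veh and Nsdhl was not. AD_HighP mouse 4, 1 of the 4 libraries with high Ttr, gave Cyp51 at 12.75 FPKM (15.8 to 16.66) and Msmo1 at 13.11 (16.64 to 17.73), both the lowest of their group. The rest were Acaca at 8.568 FPKM in AD_Veh mouse 4 (5.788 to 6.388), Elovl6 at 13.44 in AD_Veh mouse 3 (9.378 to 10.46), Lss at 3.022 in AD_LowP mouse 2 (3.897 to 4.243) and Cyp46a1 at 59.68 in WT_HighP mouse 4 (73.5 to 79.04).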

How the results depend on the processing

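In AD_Veh against WT_Veh the 8 members called became 2 when only those groups were fitted, 5 without the 4 libraries with high Ttr, 5 in males and 1 in females. Leaving out 1 library gave 5 to 8, with 5 without WT_Veh mouse 4 or 5 or AD_Veh mouse 2, 3 or 4. Over all tested genes the main fit called 465 higher and 45 lower there. These counts became 324 and 22 with only those groups, and 408 and 28 without the libraries with high Ttr. They were 270 and 39 in males and 187 and 28 in females. In WT_HighP against WT_Veh the 1 call became 0 with no filter, with GC correction, with GC correction and the replicate block, without the libraries with high Ttr and in males, and became 2 with the replicate block, 3 with a sex term, 5 with only those groups, 6 in females and 8 with array weights. Leaving out 1 library gave 0 to 7 there: 7 without WT_Veh mouse 1, 3 without AD_LowP mouse 2, 2 without AD_LowP mouse 1 or 4, and 0 without WT_Veh mice 2 to 5, WT_HighP mice 1 to 4, AD_Veh mouse 3 or AD_HighP mice 2 to 4. Calls over all tested genes moved as well, from 228 higher and 294 lower in the main fit. They became 13 and 10 with GC correction, 845 and 668 with only those groups, and 1223 and 1055 in females. With array weights they were 1691 and 1680, without WT_Veh mouse 1 they were 1292 and 1432. Without WT_Veh mouse 5 they were 0 and 0, so these swings are not particular to the members. In AD_HighP against WT_HighP the 2 calls became 5 with only those groups, 8 with array weights, 4 with voom, 1 in males, and 0 in females and without the libraries with high Ttr. Leaving out 1 library gave 1 (WT_HighP mouse 3) to 4 (AD_LowP mouse 2). All tested genes gave 246 higher and 42 lower in the main fit of that comparison. They gave 345 and 172 with only those groups, 599 and 371 with array weights, and 283 and 35 with voom. In males the counts were 103 and 21, in females 73 and 3, and without the libraries with high Ttr 131 and 1. AD_LowP against AD_Veh gave 2 calls in females (Pmvk higher, Idi1 lower), AD_HighP against AD_LowP gave 2 in males (Tm7sf2 and Cyp46a1 higher), and the other settings run gave 0 in these. Over all tested genes that fit in females called 456 higher and 295 lower, and that in males 234 and 95. Fits by sex, by group or without libraries use fewer mice; for the other changes the cause was not tested. Mice of the same number also shared their sex by RNA, so the replicate block takes in sex too. Of 50 pairs of libraries with the same number 11 correlated over 0.1, and 3 of 25 libraries correlated best with their own number. With the replicate block 8 members were called in AD_Veh against WT_Veh (Ebp in place of Acly) and 2 in AD_HighP against WT_HighP. The log2 differences of the called members were positive under each setting run. Depth limits Fdps, with 9 to 59 reads a library.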
